A study of Mus musculus with 6 samples.

Results

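The levels of 7 mRNAs, those of *Hdac6*, *Atg7*, *Dctn1*, *Rptor*, *Grn*, *Sort1* and *Poldip3*, were compared in spinal cord endothelial cells (ECs) of control mice and of mice with an endothelial deletion of TDP-43. They were taken by gene symbol from a table of 56748 genes because their level or splicing was known, from neurons or cell lines, to depend on TDP-43. Each symbol matched 1 row, and all 7 were among the 13107 genes left after the filter on low counts. Bulk RNA-Seq had been made from ECs sorted from the spinal cord of P16 mice of 2 genotypes. The 3 control mice were of the genotype Tardbpflox, in which loxP sites flank the third exon of *Tardbp*, the gene of TDP-43, and no Cre is present. The 3 TDP-43iΔEC mice were Cdh5(PAC)-CreERT2;Tardbpflox, in which a tamoxifen-inducible Cre is driven by the endothelial *Cdh5* promoter. All 6 mice received tamoxifen (1 mg/mL) from P5 to P7, each mouse gave 1 library, and no group carried Cre without the floxed gene.

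TDP-43 is an RNA-binding protein of the nucleus that prefers UG-rich sequence, mostly in introns and in the ends of transcripts that follow the coding part. Through this binding it holds cryptic or cassette exons in or out of mRNAs and sets the stability of some transcripts, and its loss from the nucleus marks amyotrophic lateral sclerosis and frontotemporal dementia. From work in neurons and cell lines, TDP-43 is known to keep up the mRNAs of the cytoplasmic deacetylase HDAC6, the autophagy enzyme ATG7, the motor adaptor dynactin 1 and the mTORC1 subunit raptor. It is also known to hold down progranulin mRNA, and to control a cassette exon in the mRNAs of sortilin, the receptor that carries progranulin to lysosomes, and of POLDIP3, an mRNA export and translation factor.

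The cassette exons of *Sort1* and *Poldip3* are shown because TDP-43 is known for acting on them and because gene-level counts cannot see them. The GENCODE M39 annotation of GRCm39, read on the gene's own strand, holds a coding exon of 99 bases in *Sort1* at chr3:108262788-108262886 (plus strand) and one of 87 bases in *Poldip3* at chr15:83021669-83021755 (minus strand). Both lengths are multiples of 3, so the reading frame is kept with or without the exon. The *Sort1* exon is in 2 protein-coding transcripts and skipped in 2, and the *Poldip3* exon is in 6 and skipped in 4. Capitals mark the exon, and the lower case letters are the 60 intron bases on either side.
Sort1: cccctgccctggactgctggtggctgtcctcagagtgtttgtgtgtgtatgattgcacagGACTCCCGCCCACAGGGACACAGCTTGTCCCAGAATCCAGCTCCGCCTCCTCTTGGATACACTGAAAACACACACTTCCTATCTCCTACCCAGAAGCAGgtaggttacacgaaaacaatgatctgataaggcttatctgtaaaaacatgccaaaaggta
Poldip3: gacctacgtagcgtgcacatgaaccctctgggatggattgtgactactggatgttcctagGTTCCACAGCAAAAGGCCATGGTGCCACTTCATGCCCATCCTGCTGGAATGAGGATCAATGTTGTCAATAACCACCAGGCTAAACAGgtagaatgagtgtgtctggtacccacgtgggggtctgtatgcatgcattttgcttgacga

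The letters TGTGTG, a short form of the UG repeat, were searched on the gene's own strand, which reads as the RNA does. Overlapping matches were counted. In the 300 bases upstream of the *Sort1* exon they occurred 4 times, the nearest ending 14 bases before the exon, and they did not occur in the 300 bases downstream or on either side of the *Poldip3* exon. Of 192258 internal exons of the tested protein-coding genes, 20.9% held the letters in the 300 bases upstream and 22.7% in the 300 bases downstream. The stretch of 30 bases with the most TG upstream of the *Sort1* exon, at chr3:108262668-108262697, is printed with its TG runs in capitals.
Sort1 upstream: tgagggaagaGTGTGTGgGTGTGTGTattg
These are matches of letters and not measured binding sites.

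Over whole gene bodies, the 7 genes differed in their content of TGTGTG. *Dctn1* had 50.3 matches per 10 kb, which lay at percentile 97.7 of the tested genes, and *Poldip3* had 5.98, at percentile 16.3. The median of the tested genes was 16.1, and 92.8% of them had at least 1 match. The other members ranged from 16.0 per 10 kb in *Sort1* to 28.3 in *Hdac6*. In *Rptor*, *Atg7*, *Dctn1* and *Hdac6* the longest uninterrupted TG run lay in an intron and was 72, 54, 47 and 47 bases long. In spliced sequence the order was different, with 1.54 matches per kb of exon in *Grn*, 1.19 in *Rptor* and 0 in *Dctn1*. The same letters on the opposite strand (CACACA) were fewer than TGTGTG in 5 genes, from 22 against 172 in *Dctn1* to 93 against 124 in *Sort1*, and more in *Grn* (27 against 15) and *Poldip3* (21 against 14).

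The 7 genes lie on 4 autosomes and the X chromosome of GRCm39. *Grn* spans chr11:102321141-102327874 and *Rptor* chr11:119493731-119790402, *Atg7* spans chr6:114620044-114837576 and *Dctn1* chr6:83142902-83177107, and *Sort1* spans chr3:108191285-108268842, all on the plus strand. *Hdac6* spans chrX:7795684-7814404 and *Poldip3* chr15:83010172-83033585 on the minus strand. No exon of *Hdac6*, *Atg7*, *Dctn1* or *Poldip3* overlaps an exon of another annotated gene. Exons on the opposite strand cover 33.1% of the exonic sequence of *Grn* and 26.9% of that of *Sort1*, and other genes cover 6.73% of that of *Rptor*. The counts do not use strand, so reads from such partners cannot be told apart by orientation, but of the 2 partners of *Grn*, *Fam171a2* was counted at 0 to 62 reads per library against at least 6101 for *Grn*, and the other has no count here.

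The libraries held 25704871 to 47270654 counts. The lowest totals were those of TDP-43iΔEC mice 2 and 3. The 5 endothelial markers *Cldn5*, *Pecam1*, *Flt1*, *Kdr* and *Vwf* summed to 8948 to 12720.5 CPM in control and 8997 to 11421 CPM in TDP-43iΔEC mice. Oligodendrocyte markers (5 of 5 detected) ranged from 288 to 546 CPM in control mice and from 15.7 to 497 CPM in TDP-43iΔEC mice, neuronal markers from 3.11 to 9.40 and from 0.933 to 3.29 CPM. Erythroid genes ranged from 6304 to 9698 CPM in control mice and from 2186 to 2898 CPM in TDP-43iΔEC mice. The 18S ribosomal RNA row *Rn18s-rs5* made up 14.8% to 18.5% of the totals in control mice and 8.04% to 13.6% in TDP-43iΔEC mice, without overlap. Control mouse 2 had the fewest genes with a count, 12972, against 14103 to 16557 in the other 5 libraries. The part of these differences in the results that follow was not tested. Fewer cells of a type and less RNA per cell cannot be told apart in bulk samples.

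*Tardbp*, the deleted gene, stood at 1973, 2282 and 2069 normalized counts in controls 1, 2 and 3 and at 982, 599.9 and 433 in TDP-43iΔEC mice 1, 2 and 3. Normalized counts are counts scaled with DESeq2 size factors. All libraries labelled TDP-43iΔEC were thus below all control libraries. In limma its log2 fold change was -1.62 (standard error, SE, 0.41, unadjusted p = 0.0033, adjusted p = 0.287), and the counts cover the whole gene, so transcripts without exon 3 are included. Its adjusted p was 0.0224 with DESeq2 and 0.373 with edgeR.

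Per kilobase of exonic sequence, *Grn* was the most abundant of the 7 mRNAs in control ECs, with 1849 ± 88.8 normalized counts per kb (SD, n = 3 mice), at percentile 96.2 of the tested genes over all mice. *Poldip3* (357 ± 106), *Sort1* (322 ± 104) and *Dctn1* (279 ± 143) followed, and the ranges of their control libraries overlapped. *Atg7* had 135 ± 83.3 normalized counts per kb and overlapped *Dctn1*. *Hdac6* had 60.5 ± 10.4, and its highest control library (70.9) lay just below the lowest of *Atg7* (74.0). *Rptor* was lowest, with 25.8 ± 26.2 normalized counts per kb and a range that overlapped *Hdac6*. *Tardbp* itself had 270.0 ± 20.3 normalized counts per kb in control mice. By the mean of TDP-43iΔEC mice, *Grn* was again highest (3063 ± 1246 per kb) and *Rptor* again lowest (47.8 ± 33.3 per kb). In TDP-43iΔEC mouse 1, however, *Rptor* (70.5 per kb) was above *Atg7* (55.3) and *Hdac6* (20.3).

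The comparison of TDP-43iΔEC with control mice asks whether mRNAs that depend on TDP-43 elsewhere differ in level when ECs lose it. Of the 7, *Grn* was the member whose groups did not overlap, and it was higher in TDP-43iΔEC mice. Non-overlap held for 15.0% of the 13107 tested genes, 7.93% being higher and 7.10% lower in TDP-43iΔEC mice. In the limma test 0 of the 7 passed an adjusted p of 0.05 (Benjamini-Hochberg over all tested genes), as 0.137% of all tested genes did (0.0305% higher and 0.107% lower in TDP-43iΔEC mice). At an unadjusted limma p under 0.05 the count was 1 of 7, again *Grn*, against 9.27% of all tested genes (4.26% with the higher level in TDP-43iΔEC mice). With edgeR and with DESeq2 the counts were also 0 of 7 after adjustment (0.00% and 1.88% of all tested genes) and 1 of 7 before it (6.47% and 8.49%). A log2 fold change of at least 1 in size was fitted for 2 of the 7, *Atg7* and *Rptor*, and for 36.2% of all tested genes. The median log2 fold change of the 7 was -0.08, and that of all tested genes was -0.02.

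**Figure D1:**
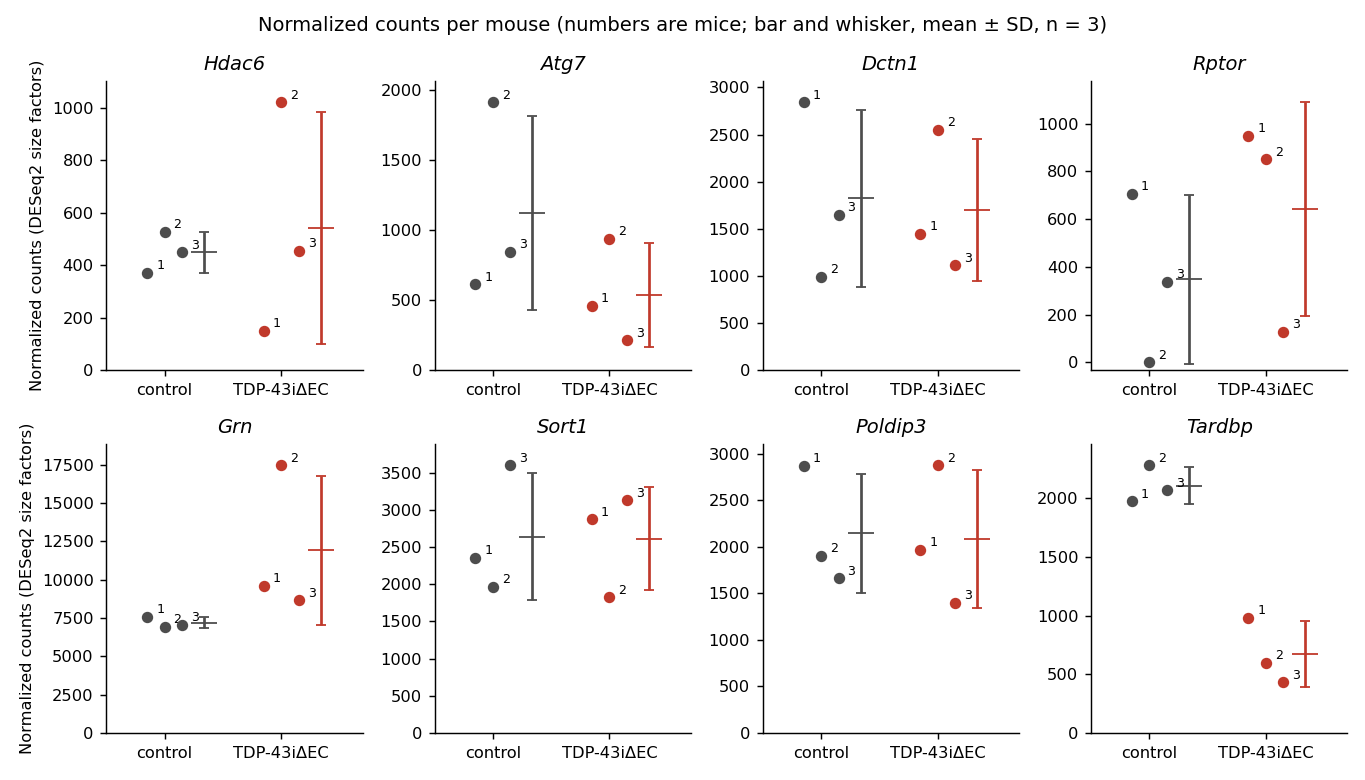
Normalized counts (vertical axis, DESeq2 size factors) of the 7 mRNAs and of *Tardbp* in each mouse, with control mice in grey, TDP-43iΔEC mice in red, the mouse number beside each point, and the mean ± SD of 3 mice at the right of each group. *Grn* and *Tardbp* are the panels in which the groups do not overlap, and *Rptor* is at 0 in control mouse 2.

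Progranulin, the product of *Grn*, is a secreted growth factor that is cut into granulins in lysosomes, and haploinsufficiency of its gene causes frontotemporal dementia with TDP-43 deposits. Controls 1, 2 and 3 had 7574, 6925 and 7048 normalized counts of *Grn*. In TDP-43iΔEC mice 1, 2 and 3 it had 9576, 17461.5 and 8658. The control libraries were close together, with a coefficient of variation of 4.80%, and TDP-43iΔEC mouse 2 was well above the other 2 of its group, whose coefficient of variation was 40.7%. Mean levels were 7183 ± 345 and 11898 ± 4840 normalized counts (SD, n = 3 mice each), a 1.53-fold difference in limma with a 95% confidence interval of 1.01 to 2.31. On the log2 scale this was 0.61 (SE 0.26, limma unadjusted p = 0.0465 and adjusted p = 0.533). The exact two-sided permutation test gave p = 0.1, the smallest possible with 3 against 3 mice.

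The size of the *Grn* difference rested on TDP-43iΔEC mouse 2. Without it the log2 fold change was 0.32 (SE 0.19, limma adjusted p = 0.645), and without each of the other mice it lay between 0.56 and 0.76. Over the 16 alternatives the adjusted p of *Grn* ranged from 0.309 (DESeq2) to 0.735 (limma without TDP-43iΔEC mouse 1). The *Grn* groups stayed apart with scaling by DESeq2, TMM, library size or the endothelial markers. Microglia and macrophages are known to make much progranulin. The antibodies listed for the study include, beside CD31 for ECs, CD45, which these cells carry, and one to erythroid cells, but the sorting gate is not given in the sources used here. The summed level of their 5 markers was 0 to 1.80 CPM in control and 0.244 to 8.21 CPM in TDP-43iΔEC mice, with *Adgre1* at 0 counts in all libraries. It was 2.20 CPM in TDP-43iΔEC mouse 2, where *Grn* was highest (519 CPM), and 8.21 CPM in mouse 3, where *Grn* was lowest of its group (237 CPM). The markers within this sum differed. *P2ry12* had 62, 0 and 85 counts in controls 1, 2 and 3. In TDP-43iΔEC mice 1, 2 and 3 it had 0, 0 and 211, which was the whole sum of mouse 3. *Aif1*, *Cx3cr1* and *Csf1r* had 0 counts in all controls and 28, 5 and 29 in TDP-43iΔEC mouse 2. *Csf1r* also had 11 counts in TDP-43iΔEC mouse 1. The 5 mural markers summed to 1018 CPM in TDP-43iΔEC mouse 2, the highest of the 6 libraries, and to 390.0 to 817 CPM in the others. The part of these cells in the *Grn* difference was not tested.

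*Sort1* encodes sortilin, which binds progranulin at the cell surface and delivers it to lysosomes. Control mice 1 to 3 gave 2356, 1964 and 3604 normalized counts of *Sort1*, and TDP-43iΔEC mice 1 to 3 gave 2877, 1826 and 3133. The groups overlapped fully, with the highest library a control and the lowest a TDP-43iΔEC library. Mean levels were 2641 ± 857 and 2612 ± 693 (SD, n = 3 mice each). Limma estimated a log2 fold change of -0.04 (SE 0.34, limma adjusted p = 0.980). The 95% confidence interval, not adjusted for the number of genes tested, ran from 0.570-fold to 1.66-fold, so a difference within these bounds is not excluded. These counts do not separate transcripts with and without the 99-base exon printed above.

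*Hdac6* encodes a deacetylase of the cytoplasm that acts on tubulin and helps to gather misfolded protein for autophagy. Its normalized counts were 372, 527 and 449 among controls and 151, 1019.6 and 456 among TDP-43iΔEC mice. Here the control libraries lay inside the range of the TDP-43iΔEC libraries, which held both the lowest (mouse 1) and the highest (mouse 2). The means, 449 ± 77.6 and 542 ± 441 (SD, n = 3 mice each), differed by less than the spread, while the log2 fold change of limma was -0.49 (SE 0.75, adjusted p = 0.852). Its sign was thus not settled: edgeR gave 0.23, DESeq2 0.27 and limma with a replicate block 0.28. Without TDP-43iΔEC mouse 1 it was 0.63 and without mouse 2 it was -1.11.

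*Atg7* encodes the E1-like enzyme that activates the ATG8 and ATG12 proteins for autophagosome formation. Values of 615, 1913 and 847 normalized counts were found in controls and of 459, 939.7 and 213 in TDP-43iΔEC mice. Control mouse 2 stood far above the other 2 controls, and TDP-43iΔEC mouse 2 lay within the control range. On average there were 1125 ± 692 and 537 ± 370 (SD, n = 3 mice each). Its limma log2 fold change of -1.09 (SE 0.69, adjusted p = 0.624) was the most negative of the 7, with a 95% confidence interval from 0.158-fold to 1.39-fold. It stayed negative in all 16 alternatives, between -1.48 and -0.68, and -0.68 was the value without control mouse 2 (adjusted p = 0.742).

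*Rptor* encodes raptor, which brings substrates to the mTOR kinase in mTORC1. Its level was 705, 0 and 338 normalized counts in the controls, against 949, 851 and 129 in TDP-43iΔEC mice. Control mouse 2 had 0 counts of *Rptor* among 45329494, which allows a level of up to 0.0662 CPM (3 counts), whereas the other 5 libraries had 3.54 to 27.8 CPM. This single library set the fitted difference. The log2 fold change was 3.57 with all mice (SE 2.38, adjusted p = 0.640 from limma) and 0.14 without control mouse 2 (SE 0.83, adjusted p = 0.978). With all mice kept, it was 0.83 with edgeR, 0.89 with DESeq2 and 0.93 with sample quality weights. Genes at a like level were also often missing in control mouse 2. Of 1579 tested genes whose mean over the other 5 libraries lay within 25% of that of *Rptor*, 10.9% had 0 counts in that library, and the same share was 0% to 3.00% in each of the other 5 libraries. A count of 0 in exactly 1 of the 6 libraries, as for *Rptor*, was found for 13.3% of all tested genes. By the mean of normalized counts, 348 ± 353 and 643 ± 448 (SD, n = 3 mice each), the groups overlapped.

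*Dctn1* encodes the large subunit of dynactin, which links dynein to its cargo on microtubules. Controls had 2840.1, 991 and 1646 normalized counts of it, while there were 1448, 2552 and 1113 in TDP-43iΔEC mice. The controls alone spanned the whole range of the TDP-43iΔEC libraries. Mean levels were 1826 ± 938 and 1704 ± 753 (SD, n = 3 mice each). The fit put the log2 fold change at -0.10 (SE 0.47, limma adjusted p = 0.964), with a 95% confidence interval from 0.445-fold to 1.96-fold. Without control mouse 1 it was 0.29 and without control mouse 2 it was -0.49. *Dctn1* held the densest TGTGTG content of the 7 gene bodies, as given above.

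*Poldip3* encodes a protein that joins spliced mRNAs and recruits S6 kinase 1 to promote their translation. Its libraries held 2868, 1901 and 1663 normalized counts among controls and 1967, 2876 and 1401 in TDP-43iΔEC mice. The highest values of both groups, those of control mouse 1 and TDP-43iΔEC mouse 2, were nearly equal. Mean levels were 2144 ± 638 and 2081 ± 745 (SD, n = 3 mice each). For this mRNA limma gave -0.08 on the log2 scale (SE 0.35, adjusted p = 0.958), and the 95% confidence interval ran from 0.543-fold to 1.64-fold. As for *Sort1*, the counts sum transcripts with and without the printed exon.

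**Figure D2:**
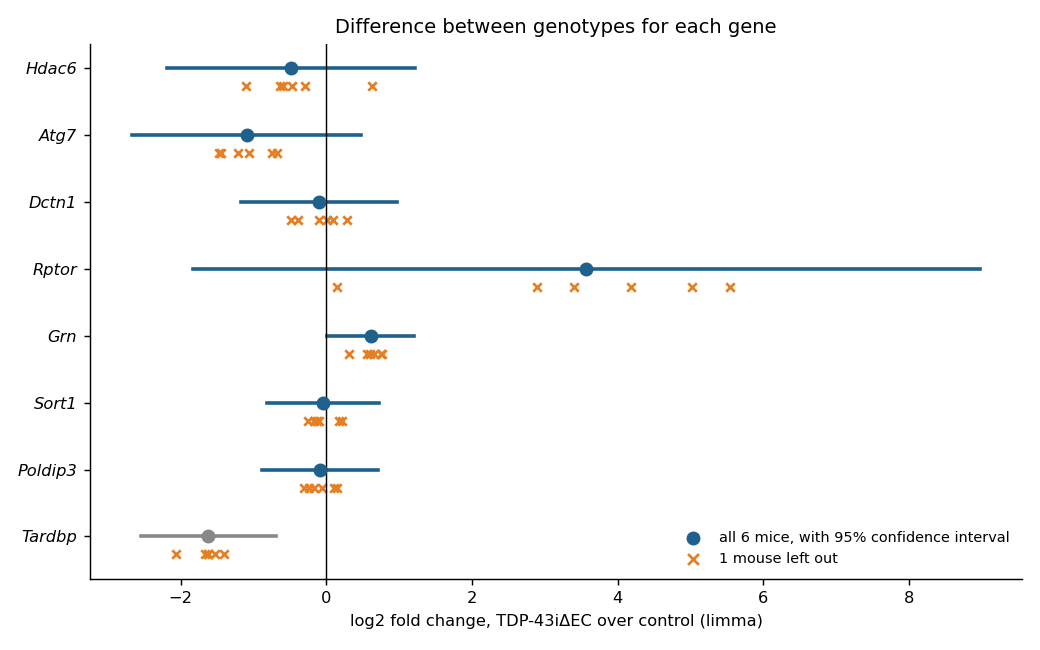
Log2 fold change of TDP-43iΔEC over control mice from limma (horizontal axis) for each mRNA, as a point with its 95% confidence interval, and the value with 1 mouse left out as crosses. The interval of *Grn* starts just above 0, at 0.01, the intervals of the other 6 members include 0, and the *Rptor* crosses run from 0.14 to 5.54.

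The spread between mice of the same genotype limited what these comparisons could show. On the log2 CPM scale the pooled SD within genotypes was 0.39 for *Grn*, 0.45 for *Sort1*, 0.47 for *Poldip3*, 0.70 for *Dctn1*, 0.95 for *Atg7*, 0.99 for *Hdac6* and 4.31 for *Rptor*. Among the 500 tested genes nearest in mean level, these SDs lay at percentiles from 54.9 (*Hdac6*) to 91.2 (*Rptor*), so each was above the median of genes at its level. *Tardbp*, at percentile 25.9, had a smaller SD (0.42) than most genes at its level. The smallest of the 7 SDs belonged to the most abundant mRNA, *Grn*, and the largest to the least abundant, *Rptor*.

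**Figure D3:**
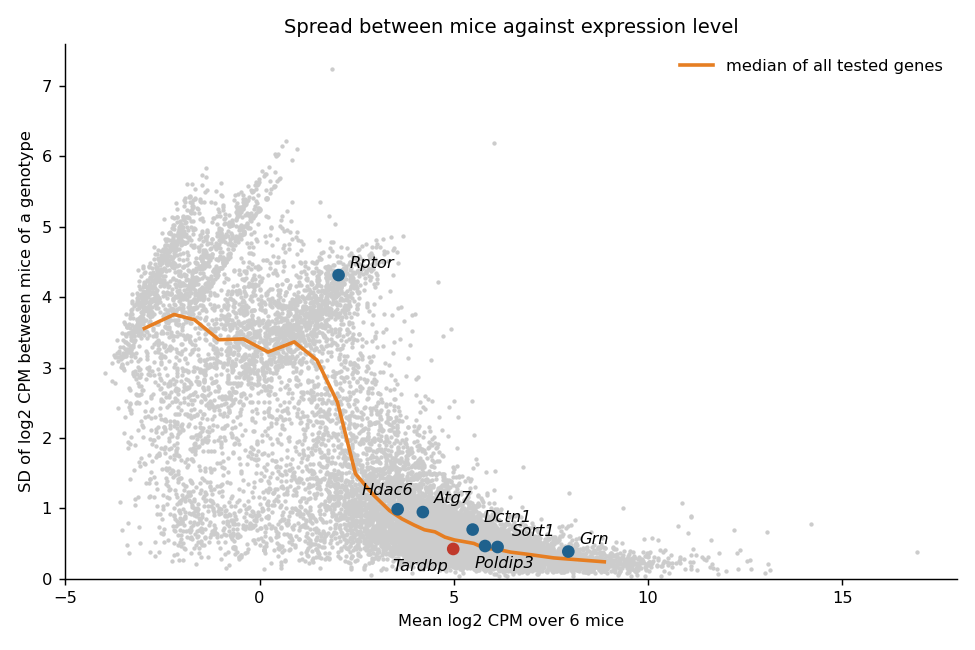
Pooled SD of log2 CPM between mice of a genotype (vertical axis) against mean log2 CPM over the 6 mice (horizontal axis) for the 13107 tested genes in grey, with their running median as an orange line, the 7 mRNAs in blue and *Tardbp* in red. The 7 lie above the median of genes at their level, and *Rptor*, with 1 library at 0, has an SD of 4.31.

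The 7 members were then set among other genes of their pathways, in 6 lists with 78 tested genes, members included. In the limma test 0 of these genes passed an adjusted p of 0.05 (0.137% of all tested genes did), and 7 (8.97%) had an unadjusted p under 0.05, where all tested genes had 9.27%. With DESeq2, 1 list gene had an adjusted p under 0.05, *Tsc2* (adjusted p = 0.0431, log2 fold change -1.10), where 1.88% of all tested genes had, and with edgeR 0 had. Groups did not overlap, TDP-43iΔEC lower, for 1 deacetylase, 1 conjugation, 1 dynactin, 2 mTORC1, 2 progranulin and 0 TREX genes. They were higher without overlap for 0, 1, 0, 0, 1 and 1. Non-overlap held for 15.0% of all tested genes, and the genes named below were picked by lowest p. The sign of most of the list medians given next depended on the setting. With library size or endothelial marker scaling the medians of the conjugation, dynactin, progranulin and TREX lists were above 0, as was that of all genes, and with edgeR or DESeq2 that of the deacetylases was. The median of the mTORC1 list was below 0 under these 4 settings.

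Of the 10 tested genes of progranulin handling and the lysosome, 2 had a positive and 8 a negative log2 fold change, with a median of -0.10. *Grn* was the most positive, and the values of *Sort1*, *Lamp1* and *Ctsb* (-0.04, -0.01 and -0.01) lay within their standard errors of 0, *Lamp1* and *Ctsb* being named after their values were seen. With library size or endothelial marker scaling this median was 0.089 or 0.14. *Tmem106b*, a lysosomal membrane protein and modifier of risk in carriers of progranulin mutations, had 2238 ± 654 normalized counts in control and 1182 ± 282 in TDP-43iΔEC mice (log2 fold change -0.91, standard error 0.36, limma adjusted p = 0.495). Its groups did not overlap, TDP-43iΔEC lower. The protease gene *Ctsl* had -0.43 on the log2 scale (limma adjusted p = 0.522), and its groups overlapped. It was -0.28 without TDP-43iΔEC mouse 2.

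Among the 15 tested genes of ATG8 and ATG12 conjugation, to which *Atg7* belongs, 9 had a negative and 6 a positive log2 fold change, with a median of -0.12. *Atg5*, part of the complex that attaches ATG8 proteins to lipid, was measured at 3118, 3564 and 2723 normalized counts in controls and at 1435, 2267 and 1743 in TDP-43iΔEC mice. All TDP-43iΔEC libraries were below all control libraries, and the log2 fold change was -0.88 (SE 0.28, unadjusted p = 0.0126, adjusted p = 0.404 from limma). The ATG8 family gene *Gabarap* had 0.33 on that scale (limma adjusted p = 0.558) without overlap of the groups. *Atg4d*, a protease of ATG8 proteins, had 2.53 (limma adjusted p = 0.649), and like *Rptor* it was nearly absent from control mouse 2 alone, at 1.78 normalized counts against at least 230.2 in the other libraries, and without that mouse its log2 fold change was 0.10.

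Of the 15 tested genes of mTORC1 and its lysosomal regulators, 11 had a negative log2 fold change and *Rptor* was among the 4 that had a positive one. *Tsc2* encodes tuberin, which holds mTORC1 back through Rheb. Its normalized counts were 5124, 5716 and 3852 among controls and 1773, 2974 and 2114 in TDP-43iΔEC mice, without overlap. In limma its fold change of -1.18 on the log2 scale (SE 0.29, unadjusted p = 0.0026, adjusted p = 0.271) had the lowest p of the 78 genes. *Lamtor1* and *Lamtor4*, subunits of the Ragulator that anchors mTORC1 to lysosomes, had log2 fold changes of -0.61 and -0.65 (limma adjusted p = 0.549 and 0.672), with separate groups for *Lamtor1*. Without TDP-43iΔEC mouse 1, *Lamtor4* was at -0.26. The list's median was -0.32. Its lowest value, -4.69, was that of *Deptor*, an mTOR inhibitor named here after its values were seen, which had 358, 0 and 566 normalized counts in controls and 0, 0 and 26.96 in TDP-43iΔEC mice, so that the groups shared the value 0.

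The 12 dynactin genes had a median log2 fold change of -0.08 and lay between -0.58 and 0.30, the narrowest range of the 6 lists. *Dctn6* and *Dctn5*, subunits of the pointed end of dynactin, had -0.58 (unadjusted p = 0.0232, adjusted p = 0.471 from limma) and -0.54 (limma adjusted p = 0.558), and the actin-capping subunit gene *Capza1* had 0.27 (limma adjusted p = 0.640) and 0.17 without control mouse 1. Of these, *Dctn6* had groups without overlap, with TDP-43iΔEC lower. Of the 11 tested deacetylase genes around *Hdac6*, 3 had a positive and 8 a negative log2 fold change (median -0.28). The lowest p values there were those of *Hdac2* (0.82, limma adjusted p = 0.584), *Hdac5* (-1.36, adjusted p = 0.604) and *Hdac8* (-2.02, adjusted p = 0.647), each with overlapping groups. With 1 mouse left out, *Hdac2* ranged from 0.46 (without control mouse 2) to 1.27 (without control mouse 3) and *Hdac8* from -3.48 to -1.19 (without TDP-43iΔEC mice 1 and 2). The direction of *Hdac5* turned to 0.068 without TDP-43iΔEC mouse 1, and it was -0.52 with edgeR and -0.49 with DESeq2. In the list of the TREX complex and mRNA export, where *Poldip3* belongs, 7 genes were positive and 8 negative (median -0.07). The THO subunit genes *Thoc1* and *Thoc2* had log2 fold changes of 0.78 (limma adjusted p = 0.563, TDP-43iΔEC higher without overlap) and -0.80 (adjusted p = 0.589), and the TREX-associated gene *Zc3h11a* had -0.65 (adjusted p = 0.640). Without TDP-43iΔEC mouse 1 the values of *Thoc2* and *Zc3h11a* were -0.31 and -0.32, and *Thoc2* was -1.33 without TDP-43iΔEC mouse 2 and *Zc3h11a* -0.99 without control mouse 2 or TDP-43iΔEC mouse 3.

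**Figure D4:**
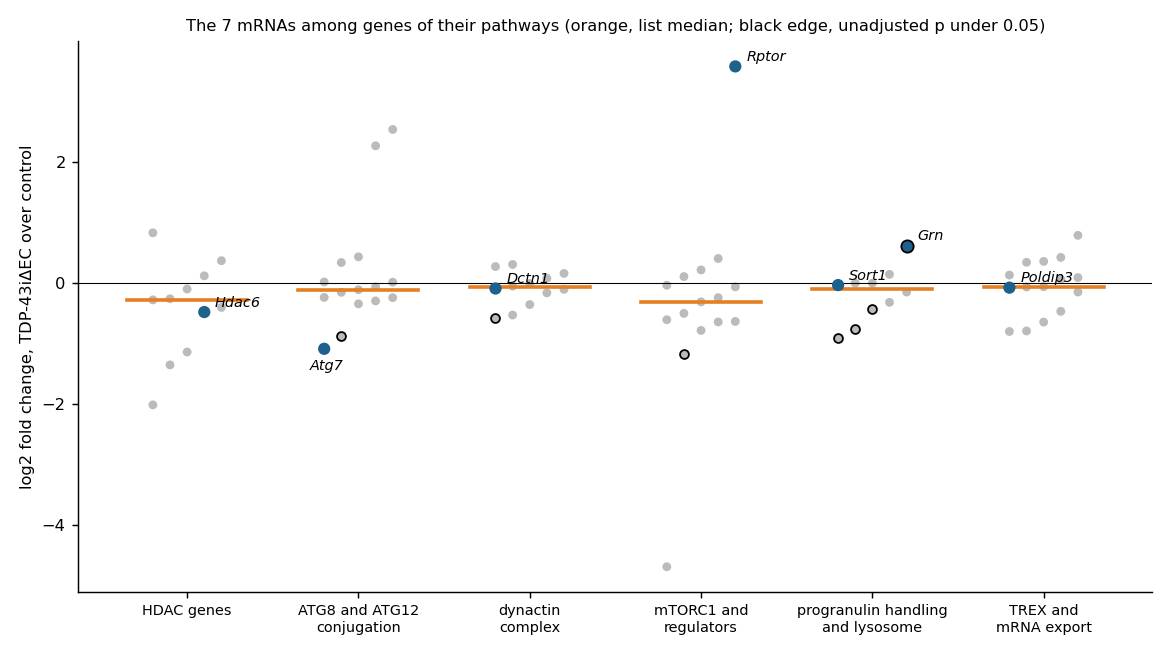
Log2 fold change of TDP-43iΔEC over control mice (vertical axis) for the tested genes of the 6 pathway lists, with the 7 mRNAs in blue, other genes in grey, the list median as an orange line and a black edge at an unadjusted limma p under 0.05. The medians lie between -0.32 and -0.07, and *Grn* is the member with a black edge.

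The genes most like each member were found by the root mean square difference of log2 CPM, centred on each gene's mean, over the 6 libraries and among 10834 genes with a mean of at least 100 normalized counts. *Poldip3* was nearest to *Rhog* and *Dnm2* (0.07 and 0.08 on the log2 scale), and *Sort1* to *Sod2* and *Pabpc1* (0.07 and 0.09). *Grn* was nearest to *Tubb6* and *Gars* (0.09 and 0.13), with log2 fold changes of 0.67 and 0.84 (limma adjusted p = 0.538 and 0.411). The nearest genes to *Dctn1* were *St6gal1* and *Dleu2* (both 0.16), to *Atg7* *Hccs* and *Idi1* (both 0.19), and to *Hdac6* *Zyx* and *Birc2* (0.20 and 0.21). *Rptor* had the least close neighbours, *Derpc* and *Pcdhga10* (0.39 and 0.44). With 6 libraries and this many genes, such closeness is a description of these libraries.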

How the data were processed

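RNA-Seq of sorted spinal cord ECs was made by SMARTseq2, which amplifies polyadenylated transcripts by PCR without molecular identifiers. The authors aligned reads to GRCm39 with STAR 2.7.8a and obtained estimated counts per gene (GENCODE M30) with RSEM 1.3.0. As deposited, these estimated counts are unscaled and hold no fractions. Genotypes came from the labels. The fit, as the study names it, was limma 3.58.1 with voom, here with TMM and filterByExpr of edgeR 4.0.16 in R 4.3.3, no covariate, and Benjamini-Hochberg adjustment over all tested genes at 0.05. Normalized counts used size factors of DESeq2 1.42.0. Gene positions came from GENCODE M39, which matched 99.6% of tested identifiers. Totals of 25704871 to 47270654 counts make 3 counts equal to 0.0635 to 0.117 CPM, a limit that covers counting error only. The members and lists were chosen with earlier results of these data known. The text names the members, *Tardbp*, endothelial markers, the 3 genes with the lowest p in each list and any past the threshold, and the 2 nearest patterns per member. One list gene that this rule names is not reported here. Alternatives were edgeR, DESeq2, other scalings, filters and weights, a replicate block, left-out gene classes and each mouse left out. Gene counts hold no splicing information, and reads were not used here.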

Additional observations from a re-analysis of the deposited data

How the results depend on the processing

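Over 16 alternatives (15 for *Rptor*, which the filter of 10 counts in every library removed), 0 of the 7 members passed the threshold, and *Grn*, *Atg7* and *Rptor* kept their direction. The sign of the other 4 depended on the setting. *Hdac6* was 0.23 with edgeR, 0.27 with DESeq2 and 0.28 with the replicate block. *Dctn1*, *Sort1* and *Poldip3* were 0.093, 0.15 and 0.10 with scaling by library size and 0.10, 0.18 and 0.13 with scaling to the 5 endothelial markers, which moved the median of all genes from -0.02 to 0.18 and 0.21. With each mouse left out, *Hdac6* ranged from -1.11 to 0.63, *Atg7* from -1.48 to -0.68, *Dctn1* from -0.49 to 0.29, *Rptor* from 0.14 to 5.54, *Grn* from 0.32 to 0.76, *Sort1* from -0.25 to 0.22, *Poldip3* from -0.31 to 0.15 and *Hdac5* from -1.98 to 0.068 (without TDP-43iΔEC mouse 1). The count of all genes past the threshold was 18, and it was 0 with edgeR (848 at an unadjusted p under 0.05), 247 with DESeq2, 10 with library size, 8 with endothelial marker scaling, 76 without a filter, 39 with at least 10 counts in every library, and 0 to 13 with each mouse left out (0 without TDP-43iΔEC mouse 1). The list genes past the threshold were 0, and 1 (*Tsc2*) with DESeq2. The cause of these shifts was not tested. The sample titles number the mice and do not say whether same-numbered mice were paired. Their deviations from the group means had correlations of -0.07, -0.13 and -0.02 for numbers 1, 2 and 3. With 3 mice a group, such correlations cannot settle whether a pairing existed. The replicate block gave 22 genes and 0.71 for *Rptor*. With 3 mice a group, the intervals given for *Sort1*, *Dctn1* and *Poldip3* are not adjusted for the number of genes tested. Differences beyond them could also miss the threshold, as that of *Tsc2* did in limma (log2 fold change -1.18, adjusted p = 0.271).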
